A study of Mus musculus with 27 samples.

Results

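Lysosomal cathepsins and the subunits of the vacuolar proton pump (V-ATPase) were followed in mouse bone marrow-derived macrophages (BMDM) that met a toll-like receptor (TLR) ligand for the first time or again. The members are every gene whose array name begins with Atp6v0 or Atp6v1 or is Cts followed by a single letter, together with Lamp1, Lamp2 and Mcoln1. No probe carried the name Tfeb, so that gene is not analysed here. The names picked out 52 probes of 43 genes among 55681 non-control probes. Of these, 44 probes of 35 genes passed, that is, lay well above background on 2 or more arrays of some condition (14 cathepsins, 8 subunits of the V0 part, 10 of the V1 part and 3 membrane proteins). Over the whole array 30814 probes met the same condition. The 8 genes without such a probe were Atp6v0a4, Atp6v1b1, Atp6v1c2, Atp6v1g3, Ctsj, Ctsm, Ctsq and Ctsr, and they are not described further.

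All cultures came from bone marrow of female C57BL/6 mice aged 6 to 8 weeks, grown into macrophages with L929 cell-conditioned medium as the source of growth factor. Naïve cells received no ligand. Acute cells were stimulated for 4 h with lipopolysaccharide (LPS, a TLR4 ligand, 100 ng/ml), Pam3CSK4 (TLR2, 100 ng/ml), Poly(I:C) (TLR3, 10 µg/ml) or CpG DNA (TLR9, labelled 100 µM, whereas the methods state a lower concentration). Re-stimulated cells were held in the ligand for 24 h, washed, rested and stimulated with the same ligand for a further 4 h. Each of the 9 conditions had 3 arrays. Deposited normalized values exist for 25 of the 27 arrays, so re-stimulated LPS (replicates 1 and 2) and acute Pam3CSK4 (replicates 1 and 3) have 2. The methods describe a replicate once as a single mouse and once as a pool of mice, so the p-values measure only the spread between these cultures.

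Some arrays stood apart. Naïve replicate 3 had 74.9% of probes well above background, against 43.06 to 54.99% on the other arrays used, and counts of called genes against naïve cells are given with and without it, as are the members whose call changed without it in re-stimulated cells. The 2 arrays without deposited values had 92.4 and 99.9%. The acute LPS arrays were on slides of their own (slides 4 to 6) and scanned on other days than all the rest (slides 1 to 3, where the slide number is the replicate number), so for them slide and stimulus cannot be told apart. The macrophage markers Cd68, Csf1r, Emr1, Fcgr1, Itgam and Mertk were above background on all 25 arrays. Whole cultures were measured, so fewer cells of a type and less RNA per cell cannot be told apart.

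Lysosomes break down what macrophages engulf. The V-ATPase acidifies them: its V1 part lies in the cytosol and hydrolyses ATP, and its V0 part sits in the membrane and carries protons across. Cathepsins are proteases that mature and work in that acid compartment, and in macrophages they digest microbes, trim antigens for MHC class II presentation and activate other enzymes. Many lysosomal genes carry a palindromic element, the CLEAR element, to which the transcription factor TFEB and its relatives bind.

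The promoters of the members were read to show which carry the core of that element, the letters TCACGTGA, and which carry the shorter E-box CACGTG that lies inside it. Both read the same on either strand. RefSeq promoters (GRCm38.p6, 250 bases before to 50 bases after the start) were held for 25 of the 35 genes. Not held were Atp6v0a2, Atp6v0d2, Atp6v1b2, Atp6v1c1, Atp6v1g1, Atp6v1h, Ctsb, Ctse, Ctsh and Ctsw. The core was found in 6 of the 25 genes (24%), namely Atp6v0d1, Atp6v0e, Atp6v1a, Ctsa, Ctsd and Mcoln1, and in 1.12% of all 27025 genes with a promoter. The E-box was found in 10 of the 25 genes (40%), the others being Atp6v0b, Ctsf, Ctsl and Lamp1, and in 8.09% of all genes with a promoter. The stretches below are those where the core lies before the start, and that of Ctsf, which has the E-box alone and a called change. Capitals mark the core or, for Ctsf, the E-box, and each is written in the direction of its gene. The Mcoln1 stretch also holds an E-box in lower case, which begins 71 bases before its start.
Atp6v1a, chr16:44139354-44139421, minus strand: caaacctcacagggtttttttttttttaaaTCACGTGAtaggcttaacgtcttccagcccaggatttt
Ctsa, chr2:164833730-164833772, plus strand: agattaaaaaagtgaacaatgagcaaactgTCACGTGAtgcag
Ctsd, chr7:142387889-142387956, minus strand: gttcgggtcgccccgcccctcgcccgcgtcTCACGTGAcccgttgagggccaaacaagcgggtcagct
Mcoln1, chr8:3500443-3500510, plus strand: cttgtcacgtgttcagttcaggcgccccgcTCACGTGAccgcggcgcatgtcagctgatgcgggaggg
Ctsf, chr19:4855056-4855121, plus strand: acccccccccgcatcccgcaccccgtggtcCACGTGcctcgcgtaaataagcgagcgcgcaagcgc

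The core begins 132 bases before the start of Atp6v1a, 13 before that of Ctsa, 99 before that of Ctsd and 46 before that of Mcoln1. Atp6v0a1 and Ctsc, which had large called changes, were among the genes with a promoter and held neither motif in this window. These matches describe letters and are no evidence of binding.

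Across all conditions, 3 V-ATPase subunits and 1 cathepsin carried most of the calls. Atp6v0d2, Atp6v0a1 and Atp6v1b2 were lower in re-stimulated than in naïve cells for each of the 4 ligands, and Ctsc was higher for 3 of them. Most other members, among them Ctsb, Ctss, Ctsz, Lamp1 and Lamp2, were not called in the main fits, which took 2 groups at a time with all arrays in use. Some of these were called under other settings. In 1 fit of all 9 groups, Ctsz was called between acute and re-stimulated Poly(I:C) cells (adjusted p = 0.0214). That fit also called it between re-stimulated Poly(I:C) and naïve cells (adjusted p = 0.0247). A call means an adjusted p below 0.05 in limma with at least a 1.5-fold difference, and each gene is counted by its brightest probe. The 4 comparisons with naïve cells share the same naïve arrays.

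**Figure D1:**
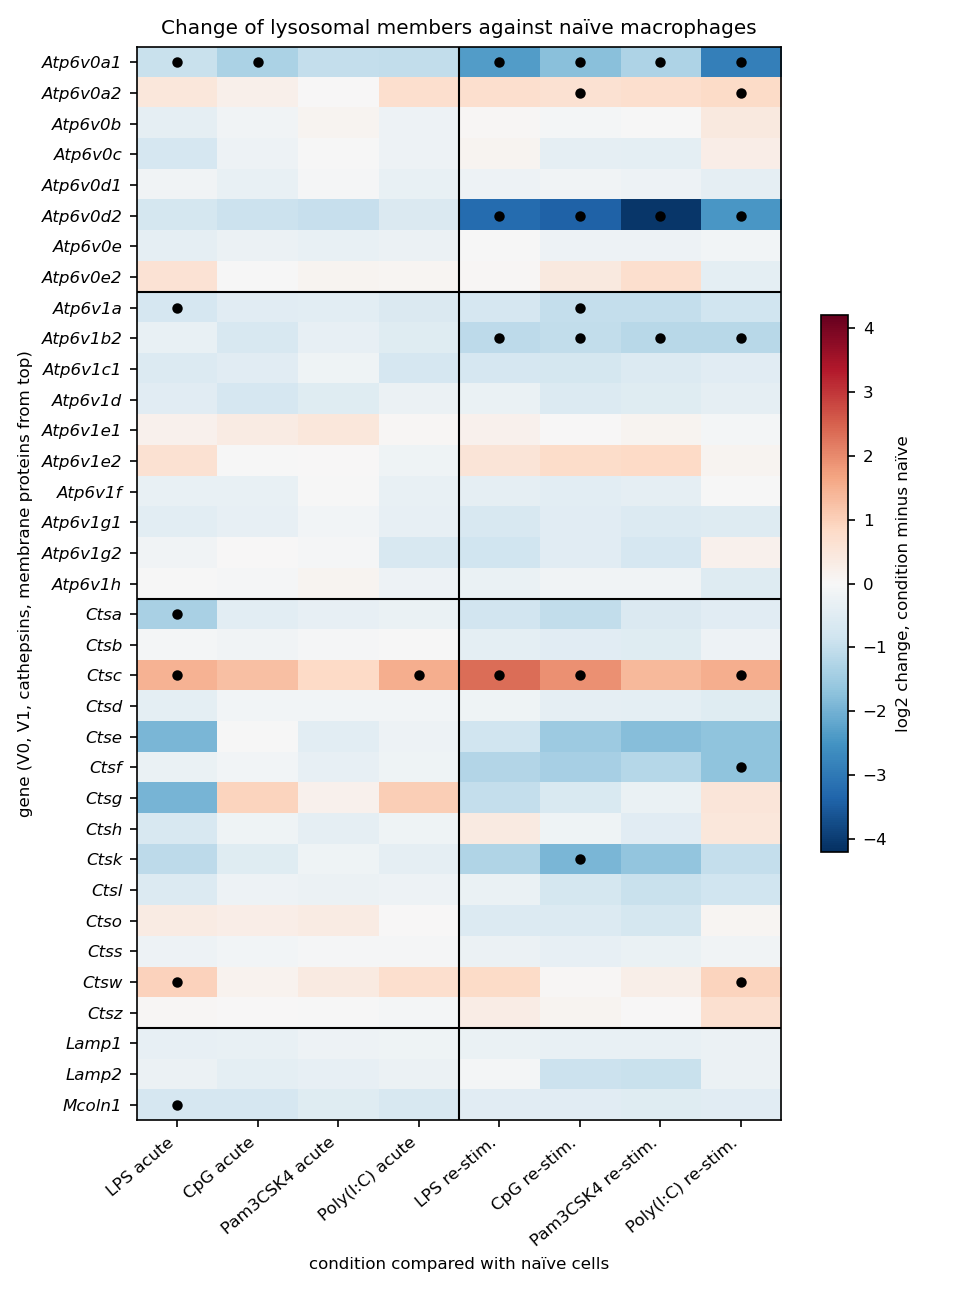
Heat map of the log2 change of each of the 35 genes (rows, grouped as V0, V1, cathepsins and membrane proteins) in acute and re-stimulated cells compared with naïve cells (columns), with black dots for called changes. Atp6v0d2 has the deepest blue at -4.10 in re-stimulated Pam3CSK4 cells and Ctsc the deepest red at 2.35 in re-stimulated LPS cells.

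Against naïve cells, re-stimulated LPS cells had 4 of 35 members called (1 higher, 3 lower; 11.4%), where 5.66% of all probes tested were called. Re-stimulated CpG cells had 7 (2 higher, 5 lower; 20%) against 13.1% of all probes, Pam3CSK4 cells 3 (all lower; 8.57%) against 5.36%, and Poly(I:C) cells 7 (3 higher, 4 lower; 20%) against 9.03%. The median change of the members was -0.29, -0.47, -0.47 and -0.26 on the log2 scale, while that of all probes tested lay between -0.04 and 0.03. Without naïve replicate 3 the counts became 9, 13, 6 and 9, where 19.1, 23.7, 13.6 and 14% of all probes were called. Beside Ctse, Ctsf, Ctsg and Lamp2, treated below, the members then gained, all lower, were Atp6v1a in LPS and Poly(I:C) cells (-0.83 and -0.94, adjusted p = 0.0437 and 0.0408), Ctsa in LPS and CpG cells (-0.92 and -1.15, adjusted p = 0.0327 and 0.0429) and Ctsl (cathepsin L) in CpG and Poly(I:C) cells (-1.10 and -1.21, adjusted p = 0.0174 and 0.014). Atp6v1d and Ctso were gained in CpG cells (adjusted p = 0.0486 and 0.0239). Atp6v0a2 lost its calls. Without either other naïve array the counts fell to 3 for CpG and to 0 for the other 3 ligands. Of all probes, 0, 898, 17 and 485 were called with LPS, CpG, Pam3CSK4 and Poly(I:C) without naïve replicate 1. Without naïve replicate 2 these were 8, 859, 17 and 458. The same drop to 3 followed for CpG when any CpG array was left out (655 to 1125 of 28176 probes called). For Pam3CSK4 and Poly(I:C) the count was 0 without replicate 1 or 2 of the re-stimulated cells. There 8 and 84 of 27945 and 309 and 420 of 28411 probes were called. Without replicate 3 the count was 2 for Pam3CSK4 and 3 for Poly(I:C) (504 and 3020 probes). Leaving out a re-stimulated LPS array leaves 1 in that group.

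Atp6v0d2 encodes a tissue-restricted form of the V0 subunit d, best known from osteoclasts and macrophages. Its brighter probe (mm9 chr4:19805367-19805426) read 13.65, 13.24 and 12.21 on the 3 naïve arrays (log2 values). In acute cells it read 12.21, 12.35 and 12.29 with LPS, 12.59, 12.50 and 11.34 with CpG, 12.65 and 11.47 with Pam3CSK4, and 12.87, 12.59 and 11.80 with Poly(I:C). In re-stimulated cells it read 9.75 and 9.83 with LPS, 9.97, 9.97 and 9.03 with CpG, 8.63, 8.97 and 9.19 with Pam3CSK4, and 10.97, 10.62 and 10.20 with Poly(I:C). Every re-stimulated array thus lay below every naïve and every acute array, while acute and naïve arrays overlapped.

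Compared with naïve cells, Atp6v0d2 fell by 3.24 ± 0.46 (log2 change ± SE) with LPS, which is 9.47-fold (limma, adjusted p = 0.0326). With CpG it fell by 3.38 ± 0.45 (10.4-fold, adjusted p = 0.0122). With Pam3CSK4 it fell by 4.10 ± 0.40 (17.2-fold, adjusted p = 0.0141), and with the replicate number as a block the adjusted p was 0.0564. With Poly(I:C) it fell by 2.44 ± 0.42 (5.41-fold, adjusted p = 0.0254). Within slides 1, 2 and 3 the difference was -5.02, -4.28 and -3.01 for Pam3CSK4 and -3.68, -3.28 and -3.18 for CpG. The CpG difference was called under all 14 alternatives run, with adjusted p of at most 0.0499. The other 3 lost the call without naïve replicate 1 or 2, or without replicate 1 or 2 of their own, with adjusted p up to 0.251 (LPS), 0.0733 (Pam3CSK4) and 0.0987 (Poly(I:C), which also lost it without its replicate 3). LPS lost it with no detection filter as well (adjusted p = 0.0682). The dimmer probe of Atp6v0d2 had the same 4 calls against naïve cells, with changes of -4.36 to -2.88.

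Between acute and re-stimulated cells Atp6v0d2 fell by 2.50 ± 0.19 with LPS (adjusted p = 0.000647), by 2.49 ± 0.42 with CpG (adjusted p = 0.039) and by 1.83 ± 0.34 with Poly(I:C) (adjusted p = 0.0417, limma in each case). With Pam3CSK4 the difference was -3.13 (95% confidence interval -4.13 to -2.13), with an adjusted p of 0.142, and in a fit of all 9 groups it was called (adjusted p = 0.00179). The call for LPS held under all 13 alternatives, while those for CpG and Poly(I:C) did not hold without replicate 1 or 2 of either group, nor for CpG without re-stimulated replicate 3 (adjusted p up to 0.123 and 0.145), nor with no detection filter. The acute differences from naïve cells were not called and lay between -0.97 and -0.61. Without naïve replicate 3 the acute LPS difference of Atp6v0d2 was -1.16 and was called (adjusted p = 0.00763).

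Atp6v0a1, a form of the proton-conducting V0 subunit a, was already lower in acute cells. Its probe read 14.57, 14.84 and 14.69 in naïve cells and between 13.21 and 14.05 on all acute arrays, so no acute array reached a naïve one. In re-stimulated cells it read 12.34 and 12.37 with LPS, 13.16, 12.99 and 12.69 with CpG, 13.42, 13.62 and 13.15 with Pam3CSK4, and 11.51, 11.33 and 12.66 with Poly(I:C). The lowest values were thus those of replicates 1 and 2 of Poly(I:C).

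It fell by 0.94 ± 0.18 in acute LPS cells (1.92-fold, adjusted p = 0.012) and by 1.32 ± 0.19 in acute CpG cells (2.50-fold, adjusted p = 0.0233, and 0.0541 with the replicate block). Acute Pam3CSK4 cells differed by -0.99 (adjusted p = 0.306) and acute Poly(I:C) cells by -1.04 (adjusted p = 0.0544), neither of which was a call. Against naïve cells it fell by 2.35 ± 0.19 in re-stimulated LPS cells (adjusted p = 0.0118) and by 1.75 ± 0.19 in CpG cells (adjusted p = 0.00798). It fell by 1.30 ± 0.20 in Pam3CSK4 cells (adjusted p = 0.0306, and 0.0632 with the block) and by 2.87 ± 0.38, or 7.29-fold, in Poly(I:C) cells (adjusted p = 0.0141). From acute to re-stimulated cells the gene fell further with LPS, by 1.41 ± 0.19 (adjusted p = 0.00327). With Poly(I:C) the difference was -1.83 (adjusted p = 0.0536, and 0.0384 with the block), and with CpG and Pam3CSK4 it was -0.43 and -0.31. The call of Atp6v0a1 in re-stimulated CpG against naïve cells, and that between acute and re-stimulated LPS cells, held without each single array. The acute LPS call was lost without naïve or acute replicate 2 (adjusted p up to 0.0577), and the acute CpG call and the re-stimulated LPS, Pam3CSK4 and Poly(I:C) calls against naïve cells were lost without replicate 1 or 2 of either group (adjusted p up to 0.112, 0.172, 0.13 and 0.0679) and, for Pam3CSK4, without its replicate 3. A dimmer probe of Atp6v0a1 was above background on 7 arrays and was called in no comparison.

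Atp6v1b2 encodes the B subunit of V1 found in most cells. It read 11.67, 11.62 and 11.64 in naïve cells, 10.89 to 11.59 on acute arrays and 10.18 to 10.82 on re-stimulated arrays. In re-stimulated LPS and CpG cells it fell by 1.09 ± 0.18 and 1.04 ± 0.20 (adjusted p = 0.0418 and 0.0276). In Pam3CSK4 and Poly(I:C) cells it fell by 1.18 ± 0.21 and 1.18 ± 0.17 (adjusted p = 0.037 and 0.0162). These changes were between 2.06 and 2.26-fold. With the replicate block the adjusted p was 0.057 for CpG and 0.0731 for Pam3CSK4. It also fell from acute to re-stimulated LPS cells (by 0.79 ± 0.22, adjusted p = 0.0362). Each of these 5 calls of Atp6v1b2 was lost without replicate 1 or 2 of either group (adjusted p up to 0.247).

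Its partner in the catalytic ring, the A subunit Atp6v1a, was lower in acute LPS cells (fell by 0.71 ± 0.19, adjusted p = 0.0365) and in re-stimulated CpG cells (fell by 0.99 ± 0.19, adjusted p = 0.0274, and 0.069 with the block). For the other 3 re-stimulated groups its difference from naïve cells was -0.72, -1.01 and -0.84 and not called. Both calls of Atp6v1a were lost when any 1 array other than naïve replicate 3 was left out (adjusted p up to 0.127).

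The falls of Atp6v0a1, Atp6v1b2 and Atp6v1a depend on how the arrays were scaled. With scaling to equal medians of signal, in place of equal distributions, the median change of all probes against naïve cells was 0.40, 0.78, 0.46 and 0.54 in re-stimulated LPS, CpG, Pam3CSK4 and Poly(I:C) cells. The calls over all probes then were 1042 higher and 333 lower for LPS (main scale 913 and 668), 2788 and 498 in CpG cells (1874 and 1817), 1082 and 436 in Pam3CSK4 cells (730 and 767) and 2040 and 407 in Poly(I:C) cells (1362 and 1203). In acute LPS, CpG and Poly(I:C) cells they were 2266 and 1088 (3955 and 3963), 1015 and 85 (863 and 735), 1319 and 117 (1080 and 633), and in acute Pam3CSK4 cells 199 and 29 (0 and 0). On that scale Atp6v0d2 kept its call for LPS, CpG and Pam3CSK4 (-2.51, -2.22 and -3.39) and not for Poly(I:C) (-1.53, adjusted p = 0.149). Atp6v0a1 kept it for Poly(I:C) (-1.86, adjusted p = 0.0484) and not for LPS, CpG or Pam3CSK4 (-1.48, -0.44 and -0.46). Atp6v1b2 lost all 4 calls (-0.44, 0.02, -0.54 and -0.37), and Atp6v1a differed by 0.31 in CpG cells. All of these lay below the shifted median of all probes. The acute falls of Atp6v0a1 were not called either (-0.36 for LPS and -0.37 for CpG).

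**Figure D2:**
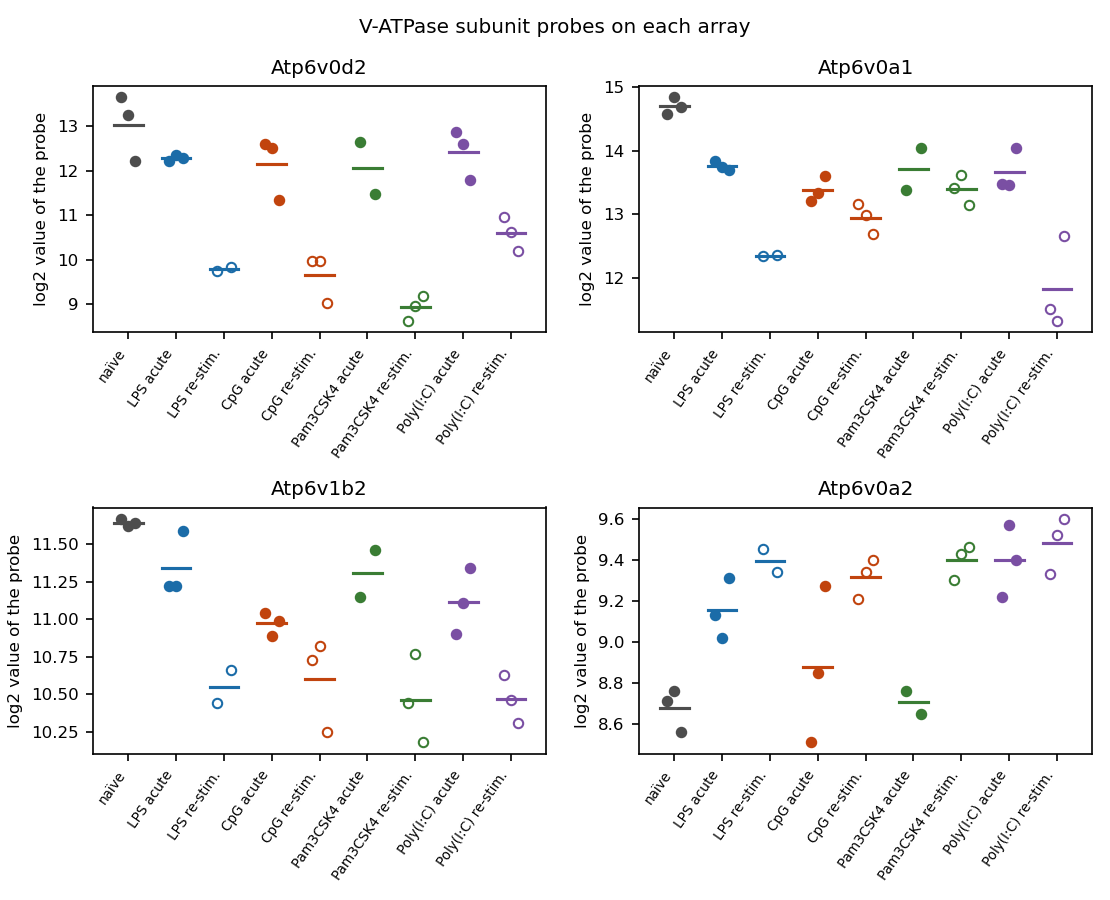
Log2 value of the probe on each of the 25 arrays (filled points for naïve and acute, open points for re-stimulated cells) in the 9 conditions, with the mean of each condition as a line, for 4 V-ATPase subunits; each panel has its own axis range. For Atp6v0d2, every re-stimulated array lies at or below 10.97 and every other array at or above 11.34.

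Not all V0 genes were lower. Atp6v0a2, another form of subunit a, read 8.71, 8.76 and 8.56 in naïve cells, and 9.21 to 9.60 on all re-stimulated arrays. It rose by 0.64 ± 0.16 with CpG (1.56-fold, adjusted p = 0.0491) and 0.81 ± 0.17 with Poly(I:C) (1.75-fold, adjusted p = 0.0407), and its differences for LPS and Pam3CSK4 were both 0.72 without a call. Neither call held with the replicate block (adjusted p = 0.0975 and 0.0794) or when any 1 array was left out (Atp6v0a2 without naïve replicate 3: adjusted p = 0.0558 and 0.0518). Atp6v0c, the gene of the membrane rotor, rose between acute and re-stimulated LPS cells (by 0.81 ± 0.22, adjusted p = 0.0342), which lay on different slides, and lost the call without replicate 1 or 2 of either group. The broadly expressed Atp6v0d1, counterpart of Atp6v0d2, stayed between 12.97 and 13.58 on all arrays and was not called anywhere. The other V0 genes (Atp6v0b, Atp6v0e and Atp6v0e2) and the other V1 genes (Atp6v1c1, Atp6v1d, Atp6v1e1, Atp6v1e2, Atp6v1f, Atp6v1g1, Atp6v1g2 and Atp6v1h) had no call in the main fits with all arrays in use. Some were called in 1 fit of all 9 groups. Against naïve cells these were Atp6v1d in acute CpG (adjusted p = 0.00241) and Atp6v1g1 in re-stimulated LPS cells (adjusted p = 0.0207). Atp6v1c1 was called in acute LPS and Poly(I:C) and re-stimulated LPS and CpG cells (adjusted p = 0.0186, 0.0124, 0.0245 and 0.00784). Atp6v0b was called between acute and re-stimulated Poly(I:C) cells (adjusted p = 0.0343). With the replicate block, Atp6v0e2 was called between acute and re-stimulated LPS cells (adjusted p = 0.0482).

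By part of the pump, 2 or 3 of the 8 V0 genes and 1 or 2 of the 10 V1 genes were called against naïve cells in each re-stimulated group. Of all probes tested, 5.66% were called with LPS, 13.1% with CpG, 5.36% with Pam3CSK4 and 9.03% with Poly(I:C). The median change of V1 lay between -0.54 and -0.42, with 8 of 10 genes lower in each of the 4 groups, and that of V0 between -0.24 and 0.02.

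Among the cathepsins the clearest rise was that of Ctsc (cathepsin C, or dipeptidyl peptidase I), which activates the serine proteases of granules. Its brighter probe (mm9 chr7:95458436-95458495) read 11.56, 11.54 and 11.89 in naïve cells. In acute cells it read 13.33, 13.18 and 12.87 with LPS, 12.47, 12.88 and 13.38 with CpG, 12.69 and 12.32 with Pam3CSK4, and 13.13, 13.35 and 13.03 with Poly(I:C). In re-stimulated cells it read 14.32 and 13.69 with LPS, 13.58, 13.67 and 13.51 with CpG, 13.66, 13.26 and 12.17 with Pam3CSK4, and 13.08, 13.16 and 13.27 with Poly(I:C). Every stimulated array lay above every naïve array.

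Ctsc rose by 1.46 ± 0.21 in acute LPS cells (2.76-fold, adjusted p = 0.00534) and by 1.51 ± 0.19 in acute Poly(I:C) cells (2.84-fold, adjusted p = 0.0138). For acute CpG and Pam3CSK4 the difference was 1.25 (adjusted p = 0.0598) and 0.85 (adjusted p = 0.312). In re-stimulated cells it was above naïve by 2.35 ± 0.27 with LPS (5.09-fold, adjusted p = 0.0247), 1.92 ± 0.17 with CpG (3.79-fold, adjusted p = 0.0051) and 1.51 ± 0.18 with Poly(I:C) (2.84-fold, adjusted p = 0.0115). For Pam3CSK4 it was 1.37 (95% confidence interval 0.39 to 2.34, adjusted p = 0.104), with replicate 3 at 12.17 and only 0.28 above naïve replicate 3 of the same slide. Without that array the Pam3CSK4 difference of Ctsc was 1.80 and was called (adjusted p = 0.0453). The rises in acute LPS and re-stimulated CpG cells were called under all 14 alternatives, while those in re-stimulated LPS, acute Poly(I:C) and re-stimulated Poly(I:C) cells lost the call without naïve replicate 1 or 2 or replicate 1 or 2 of their own (adjusted p up to 0.169, 0.0847 and 0.0607), the first also with no detection filter (adjusted p = 0.055).

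Between acute and re-stimulated cells Ctsc rose with LPS (by 0.88 ± 0.27, adjusted p = 0.0489), a call that was lost when any 1 of the 5 arrays was left out (adjusted p up to 0.239). With CpG and Pam3CSK4 it differed by 0.68 and 0.52 without a call, and with Poly(I:C) by -0.00 (95% confidence interval -0.42 to 0.41).

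A dimmer probe of Ctsc, at another place in the gene (mm9 chr7:95435428-95435487), differed more. It read 4.72, 6.98 and 5.50 in naïve cells and between 6.84 and 10.06 on all stimulated arrays. It rose by 3.73 ± 0.56 in acute LPS (adjusted p = 0.00577), 3.65 ± 0.58 in acute CpG (adjusted p = 0.0282), 3.36 ± 0.60 in acute Poly(I:C) (adjusted p = 0.0339) and 3.82 ± 0.68 in re-stimulated CpG cells (adjusted p = 0.023). In Poly(I:C) cells the dimmer probe read 8.62 to 9.52 after the acute and 7.00 to 8.03 after the second stimulus, without overlap, whereas the ranges of the brighter one (13.03 to 13.35 and 13.08 to 13.27) overlapped.

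**Figure D3:**
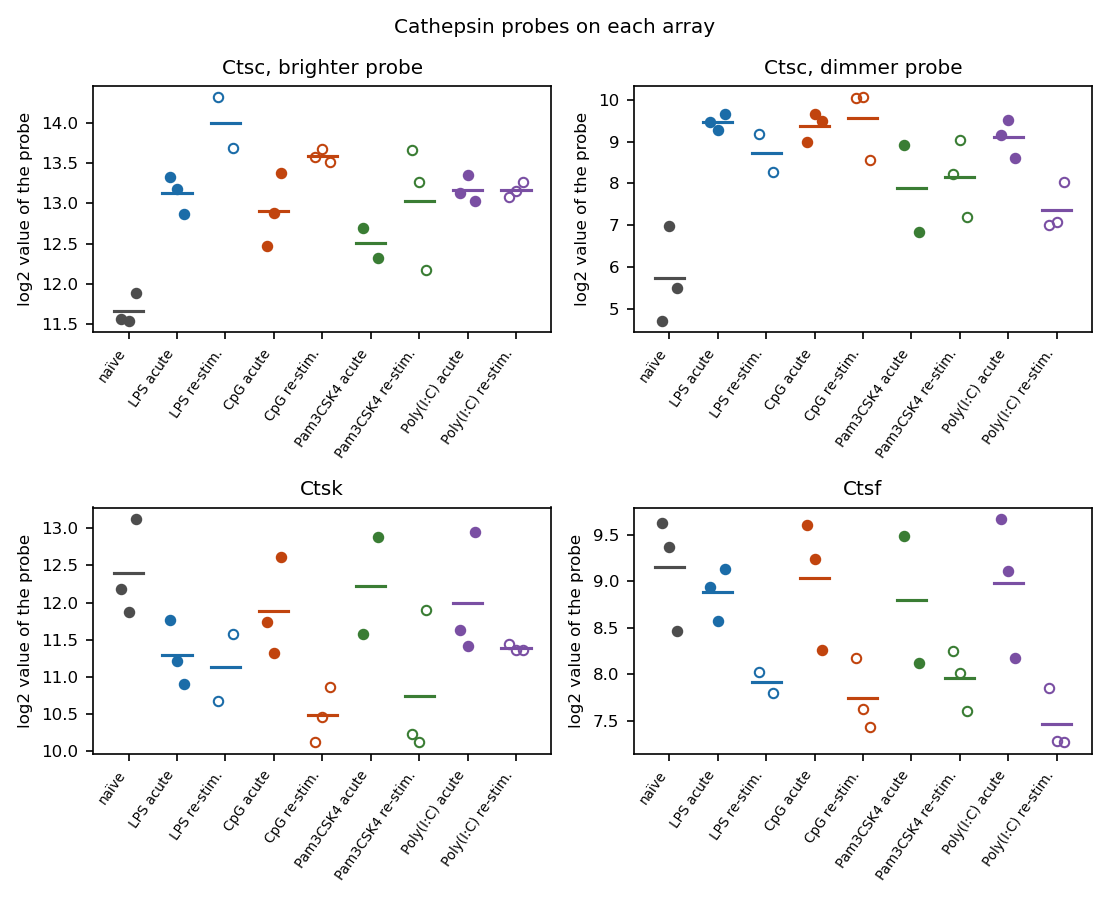
Log2 value of each probe on each of the 25 arrays (filled points for naïve and acute, open points for re-stimulated cells) in the 9 conditions, with the mean of each condition as a line; each panel has its own axis range. Both Ctsc probes lie lowest in naïve cells by their means (11.66 and 5.73), while Ctsk and Ctsf lie lower in re-stimulated CpG cells (means 10.48 and 7.75) than in naïve cells (12.40 and 9.15).

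Falls among the cathepsins were spread over several genes and ligands. Ctsk (cathepsin K), the collagen-degrading protease of osteoclasts, fell by 1.91 ± 0.38 in re-stimulated CpG cells (3.77-fold, adjusted p = 0.0285). It read 12.18, 11.88 and 13.13 in naïve and 10.12, 10.46 and 10.87 in re-stimulated CpG cells. The call was lost without any 1 of the other arrays than naïve replicate 3 (adjusted p up to 0.1) and with median scaling (-0.78, adjusted p = 0.362). Re-stimulated LPS, Pam3CSK4 and Poly(I:C) cells differed from naïve cells by -1.26, -1.65 and -1.01 without a call. The osteoclast markers Acp5 and Oscar were above background on all 25 arrays, Calcr on 3, and their summed level was 14.94 to 15.43 in naïve and 15.34 to 15.93 in re-stimulated CpG cells. Its part in the result was not tested.

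Ctsf (cathepsin F), a protease that trims the MHC class II invariant chain, fell by 1.68 ± 0.36 in re-stimulated Poly(I:C) cells against naïve cells (3.21-fold, adjusted p = 0.0422) and by 0.97 ± 0.24 between acute and re-stimulated LPS cells (adjusted p = 0.0256). It read 9.62, 9.37 and 8.46 in naïve cells. In re-stimulated cells it read 8.03 and 7.80 with LPS, 8.18, 7.63 and 7.43 with CpG, 8.25, 8.01 and 7.61 with Pam3CSK4, and 7.85, 7.28 and 7.27 with Poly(I:C), each below every naïve array. Replicate 3 was the lowest in 7 of the 7 groups on slides 1 to 3 that had it. That call did not hold without any 1 of the other arrays than naïve replicate 3 (adjusted p up to 0.149) or with median scaling (-1.04, adjusted p = 0.423), and the LPS one did not hold in the fit of all 9 groups (adjusted p = 0.124) or without acute replicate 1 or either re-stimulated array (adjusted p up to 0.134). With the replicate number as a block, the difference between re-stimulated CpG and naïve cells (-1.40, adjusted p = 0.057) became a call (adjusted p = 0.0403), as did that between acute and re-stimulated Poly(I:C) cells (-1.52, adjusted p = 0.0824, and 0.0476 with the block). For re-stimulated LPS cells, whose arrays share slides 1 and 2 with naïve arrays, the block changed the difference of Ctsf from -1.23 (adjusted p = 0.136) to -1.58 (adjusted p = 0.0206), a call. In that fit naïve replicate 3 has no partner, so the estimate is the one without that array. Leaving out naïve replicate 3, Ctsf was called lower in re-stimulated LPS cells (-1.58, adjusted p = 0.0125), the same estimate as with the block. It was then also called lower in re-stimulated CpG (-1.75, adjusted p = 0.01) and Pam3CSK4 cells (-1.54, adjusted p = 0.021).

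Ctsa (cathepsin A), a carboxypeptidase that also protects other lysosomal enzymes, fell by 1.37 ± 0.21 in acute LPS cells (2.58-fold, adjusted p = 0.00635). Its brighter probe read 17.45, 17.27 and 17.03 in naïve and 15.65, 15.95 and 16.04 in acute LPS cells, which lay on other slides, and the call was lost only with median scaling (-0.91, adjusted p = 0.455) among 14 alternatives. The dimmer probe was called lower than naïve in re-stimulated LPS (-1.30), CpG (-0.93) and Poly(I:C) cells (-1.42), where the brighter one (-0.81, -1.04 and -0.46) was not. The probes of Ctsd (cathepsin D), the aspartic protease of the lysosome, disagreed in the same way. The brighter probe read 17.90 to 18.82 on all arrays and was never called. The highest deposited log2 value of any probe was 18.82, so this probe lay at the top of the scale. Whether that hid a change was not tested. The dimmer probe read 16.84, 16.84 and 16.40 in naïve cells and fell by 1.49 ± 0.37 in acute LPS, and by 1.42 ± 0.19, 1.42 ± 0.24 and 1.22 ± 0.21 in re-stimulated CpG, Pam3CSK4 and Poly(I:C) cells (adjusted p = 0.0291, 0.0125, 0.0347 and 0.0239). Which probe follows the transcript more closely was not tested.

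Ctsw (cathepsin W), a protease known from cytotoxic lymphocytes, rose by 0.98 ± 0.23 in acute LPS cells (1.98-fold, adjusted p = 0.0231) and by 0.93 ± 0.20 in re-stimulated Poly(I:C) cells (1.91-fold, adjusted p = 0.0453, and 0.0916 with the block). It read 5.31, 4.79 and 5.19 in naïve cells, 6.06, 6.30 and 5.88 in acute LPS cells and 5.95, 6.18 and 5.97 in re-stimulated Poly(I:C) cells. Of the 4 natural killer cell markers, Klrb1c was above background on 0 arrays, Gzma on 3, Ncr1 on 6 and Prf1 on 25. Their summed level was 7.82 to 8.27 in naïve, 8.66 to 8.81 in acute LPS and 7.66 to 8.16 in re-stimulated Poly(I:C) cells, and their part in the result was not tested. Of the 4 T cell markers, Cd3d and Cd8a were above background on 1 array, Cd3g on 2 and Cd3e on 25. Their summed level was 9.53 to 9.91 in naïve, 9.88 to 10.81 in acute LPS and 9.52 to 10.00 in re-stimulated Poly(I:C) cells, with Cd3e at a mean of 9.62, 10.28 and 9.64, and the part of these was not tested either. The acute LPS call of Ctsw was lost under 7 of 14 alternatives and the Poly(I:C) call under 9 of 14, among them median scaling (adjusted p = 0.357 and 0.287), normexp, which gave changes of 0.40 and 0.37, and leaving out naïve replicate 2 (adjusted p = 0.0772 and 0.135).

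Between acute and re-stimulated LPS cells, Ctsh (cathepsin H, an aminopeptidase) rose by 1.06 ± 0.21 (adjusted p = 0.0124) and Ctso (cathepsin O) fell by 0.92 ± 0.24 (adjusted p = 0.029). The Ctsh call was lost without acute replicate 2 or either re-stimulated array (adjusted p up to 0.071), and that of Ctso under 10 of 13 alternatives (adjusted p up to 0.152). In that comparison 8 of 34 members were called (3 higher, 5 lower; 23.5%), and 34.2% of all probes tested were called. For CpG, Pam3CSK4 and Poly(I:C), 1, 0 and 1 members were called between acute and re-stimulated cells, against 3.56%, 0% and 4.93% of all probes tested. The count of 0 in limma for Pam3CSK4 had 4 members at an unadjusted p below 0.05, and 3 members were called there in a fit of all 9 groups, with 852 of 25430 probes. Leaving out 1 array turned the single calls for CpG and Poly(I:C) to 0 in most cases. The CpG fits with no member called had 17 to 135 of 25739 probes called. Those of Poly(I:C) had 0 of 27139, so these losses were not particular to the members. The count rose to 2 without acute CpG replicate 3 (1922 probes). It rose to 3 without replicate 3 of acute or re-stimulated Poly(I:C) (2324 and 3129 probes). For LPS the count was 3 without acute replicate 1 or 2, where 7200 and 6232 of 28592 probes were called. Dropping either re-stimulated LPS array left 1 in that group.

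Fewer members were called in acute cells outside LPS, and so were fewer of all probes. The differences of Atp6v0a1, Ctsc and Mcoln1 from naïve cells had the same direction with each ligand. In acute LPS cells 6 of 35 members were called (2 higher, 4 lower; 17.1%), where 26.5% of all probes tested were called, so the share lay below the background. The genes called were Ctsc, Ctsw, Ctsa, Atp6v0a1, Atp6v1a and Mcoln1. When naïve replicate 3 was left out they became 11 (against 36.6% of all probes), with Atp6v0d2, Ctse, Ctsg, Ctsh and Ctsl added, each lower, and without naïve replicate 2 or acute LPS replicate 2 they became 2. They became 3 without acute LPS replicate 1 and 4 without naïve replicate 1 or acute LPS replicate 3. Acute CpG and acute Poly(I:C) cells had 1 member called each, Atp6v0a1 lower and Ctsc higher, against 5.72% and 6.03% of all probes tested. Leaving out replicate 1 or 2 of naïve cells or of the stimulated group removed either call. Without acute Poly(I:C) replicate 3, Atp6v0a1 joined Ctsc. In acute Pam3CSK4 cells limma called 0 members and 0% of all probes tested, with 3 members at an unadjusted p below 0.05 and 1 called with the slide as a random block in a fit of all 9 groups. That fit called 2650 of 27843 probes there. The median change of the 35 members was -0.35, -0.17, -0.12 and -0.20 in acute LPS, CpG, Pam3CSK4 and Poly(I:C) cells.

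Of the membrane proteins, Mcoln1, the lysosomal calcium channel mucolipin 1, read 13.31, 13.52 and 13.42 in naïve cells and 12.81, 12.65 and 12.72 in acute LPS cells, and fell by 0.69 ± 0.17 (1.61-fold, adjusted p = 0.0301, lost under 8 of 14 alternatives, with adjusted p up to 0.891). The other acute groups differed from naïve cells by -0.70 (CpG), -0.52 (Pam3CSK4) and -0.68 (Poly(I:C)) without a call, and the re-stimulated groups by -0.51 to -0.47. Lamp1, an abundant glycoprotein of the lysosomal membrane, read 17.19 to 17.79 on all arrays, and its differences from naïve cells lay between -0.35 and -0.17. Lamp2, its relative that also serves chaperone-mediated autophagy, read 14.50, 14.11 and 13.39 in naïve cells. It differed by -0.91 in re-stimulated CpG and -0.93 in re-stimulated Pam3CSK4 cells without a call (adjusted p = 0.109 and 0.15), and without naïve replicate 3 both differences of Lamp2 were called (-1.21 and -1.23, adjusted p = 0.0142 and 0.0329). With all arrays in 1 fit of all 9 groups, both were called as well (adjusted p = 0.0265 and 0.0276). In re-stimulated LPS and Poly(I:C) cells Lamp2 differed from naïve cells by -0.09 and -0.24.

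Several cathepsins differed between slides. Ctsg (cathepsin G), a serine protease of neutrophil granules, read 3.95 to 4.88 on the replicate 3 arrays of slide 3, against 6.39 to 8.85 on slide 1 and 4.91 to 9.93 on slide 2, and was lowest on slide 3 in 7 of the 7 groups compared. The same held for Ctsf, Ctsh and Ctss in 7 of 7 groups, and for Ctsl (cathepsin L), Lamp2 and Atp6v0d2 in 6 of 7. Ctsk was highest on slide 3 in 6 of 7 groups. The neutrophil markers Ly6g, Mpo, Ngp and Prtn3 were likewise lowest on slide 3 in 7 of 7 groups. Ly6g read 1.82 to 6.42 there, 8.74 to 12.29 on slide 1 and 9.47 to 12.78 on slide 2, and Mpo 2.14 to 3.61, 5.65 to 10.96 and 3.22 to 11.47. Elane and S100a8 were lowest on slide 3 in 5 of 7 groups and above background on all 25 arrays. The summed level of the 6 neutrophil markers was 12.33 to 14.77 in naïve, 11.68 to 12.28 in acute LPS and 14.54 to 15.72 in re-stimulated Pam3CSK4 cells. The brightest marker weighs most in this sum, and the markers did not move together. From naïve to re-stimulated Pam3CSK4 cells the mean of S100a8 went from 12.69 to 15.03 and that of Ly6g from 7.02 to 7.12. Those of Elane (12.12 to 11.55), Mpo (7.52 to 5.75), Ngp (9.32 to 6.98) and Prtn3 (4.97 to 4.82) were lower.

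Ctsg itself was called in no comparison in the main fits with all arrays in use: its difference from naïve cells lay between -1.95 (acute LPS) and 1.04 (acute Poly(I:C)), with confidence intervals that all held 0. With median scaling and all arrays, Ctsg was called lower in acute LPS cells (adjusted p = 0.0125). Without naïve replicate 3, Ctsg was called lower in acute LPS (-3.30, adjusted p = 0.000372) and re-stimulated LPS cells (-2.36, adjusted p = 0.0482), neither of which was called in the fit of all 9 groups without that array (adjusted p = 0.152 and 0.444). The differences in acute CpG and Poly(I:C) cells turned from 0.92 to -0.43 and from 1.04 to -0.31. Ctse (cathepsin E), an aspartic protease of endosomes, was above background on 8 arrays, among them naïve replicates 1 and 2 (5.95 and 6.4) and not replicate 3. It was not well above background on any array of acute LPS or re-stimulated LPS, CpG or Pam3CSK4 cells. With all naïve arrays the fits gave no call (changes of -1.91, -0.84, -1.51 and -1.78, adjusted p = 0.269, 0.754, 0.448 and 0.445). With naïve replicate 3 left out, Ctse was called lower in all 4 (-3.36, -2.29, -2.97 and -3.23, adjusted p = 0.000765, 0.00836, 0.0122 and 0.0485) and in re-stimulated Poly(I:C) cells (-3.13, adjusted p = 0.0408). In the fit of all 9 groups without that array, only the acute LPS difference was called among these 5 (adjusted p = 0.033). Ctse was called with the replicate block in re-stimulated LPS cells (-2.29, adjusted p = 0.0152), a fit in which naïve replicate 3 has no partner. With median scaling it was called in acute LPS (-2.12, adjusted p = 0.00956) and re-stimulated Pam3CSK4 cells (-1.93, adjusted p = 0.0499). Within slide 3, re-stimulated CpG and Pam3CSK4 cells lay above naïve cells by 1.19 and 0.46, and within slides 1 and 2 they lay below (-3.47 and -2.26 with CpG, -3.85 and -1.94 with Pam3CSK4).

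Ligands were then set against each other at the same step, on shared slides. No member was called by limma between acute Poly(I:C) and acute CpG cells, where 0.173% of all probes tested were called. The same held between re-stimulated Poly(I:C) and CpG cells (2.47% of all probes), between Poly(I:C) and LPS cells (0.957%) and between CpG and LPS cells (0.316%). At an unadjusted p below 0.05 there were 2, 9, 5 and 5 members. The fit of all 9 groups called 2 between re-stimulated Poly(I:C) and CpG cells (2254 of 26339 probes), and 4 were called without re-stimulated Poly(I:C) replicate 3 (4483 of 26339 probes). Atp6v0a1 differed by -1.11 between re-stimulated Poly(I:C) and CpG cells (95% confidence interval -2.01 to -0.22, adjusted p = 0.156), Atp6v0d2 by 0.94 (0.15 to 1.74, adjusted p = 0.171) and Ctsk by 0.90 (0.37 to 1.44, adjusted p = 0.0885). None of these differences passed the threshold in the main fits. The 2 members called in the fit of all 9 groups were Atp6v0a1 and Ctsw (adjusted p = 0.0159 and 0.0434). With the slide as a random block Atp6v0d2 was called too (adjusted p = 0.0497). The 4 called without re-stimulated Poly(I:C) replicate 3 were Atp6v0a1, Atp6v0c, Ctsh and Lamp2 (adjusted p = 0.00939, 0.0413, 0.0181 and 0.0345).

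Other lysosomal genes were taken from 6 lists: hydrolases, other membrane and transport proteins, V-ATPase accessory and assembly factors, sorting receptors, the TFE factors with the regulators of mTORC1, and cathepsin inhibitors. Of up to 111 genes tested, 31 were called in acute LPS cells (6 higher, 25 lower; 27.9%, against 26.5% of all probes), 10 in CpG (9.09%, against 5.72%), 0 in Pam3CSK4 (against 0%) and 8 in Poly(I:C) cells (7.27%, against 6.03%), so the acute LPS share was near that of all probes. In re-stimulated cells 12 were called with LPS (3 higher, 9 lower; 10.9%, against 5.66%), 33 with CpG (5 and 28; 30%, against 13.1%), 16 with Pam3CSK4 (1 and 15; 14.5%, against 5.36%) and 24 with Poly(I:C) (5 and 19; 21.8%, against 9.03%). Their median change lay between -0.55 and -0.35 in these groups. Without naïve replicate 3 the counts were 40, 54, 37 and 32, and without naïve replicate 1 they were 0, 8, 0 and 4 (1, 8, 0 and 4 without naïve replicate 2). In acute cells they were 60, 18, 0 and 15 without naïve replicate 3 for LPS, CpG, Pam3CSK4 and Poly(I:C). Over all probes, leaving out naïve replicate 3 gave 5339 of 27915, 6687 of 28176, 3812 of 27945 and 3969 of 28411 in re-stimulated cells. In acute cells it gave 10961 of 29933, 2566 of 27954, 0 of 27843 and 2684 of 28426. Leaving out naïve replicate 1 gave 0, 898, 17 and 485 probes in re-stimulated cells.

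The direction of these lists depends on the scaling. With median scaling the counts in re-stimulated LPS, CpG, Pam3CSK4 and Poly(I:C) cells were 8 (6 higher, 2 lower), 14 (11 and 3), 6 (3 and 3) and 8 (7 and 1), and the median changes were 0.36, 0.57, 0.08 and 0.36, each below the median of all probes on that scale (0.40, 0.78, 0.46 and 0.54).

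On the deposited scale all calls among the 36 hydrolases in these 8 comparisons were downward, with 6, 12, 6 and 11 genes in the re-stimulated groups (16.7, 33.3, 16.7 and 30.6%, against 5.66, 13.1, 5.36 and 9.03% of all probes). In acute LPS cells 7 were called (19.4%, below the 26.5% of all probes). With median scaling the hydrolases had 1 call higher and 0 lower in re-stimulated LPS cells, 3 and 1 in CpG, 0 and 1 in Pam3CSK4 and 2 and 0 in Poly(I:C) cells. Hyal1, a hyaluronidase, fell by 2.78 in re-stimulated CpG (adjusted p = 0.00785) and by 3.81 in Pam3CSK4 cells (adjusted p = 0.023). Pla2g15, a lysosomal phospholipase, fell by 2.40 in LPS (adjusted p = 0.0189) and by 2.59 in Poly(I:C) cells (adjusted p = 0.00928). Of 27 membrane and transport genes, 3, 10, 2 and 5 were called, against the same 5.66, 13.1, 5.36 and 9.03% of all probes. Of these, 2, 8, 2 and 3 were lower (with median scaling 3, 5, 1 and 1 were called, of which 2, 2, 1 and 0 lower). Slc17a5, the sialic acid exporter, fell by 3.62 with LPS (adjusted p = 0.0394) and by 2.74 with CpG (adjusted p = 0.0297). Sort1, a sorting receptor, fell by 3.49 in re-stimulated Poly(I:C) cells (adjusted p = 0.0104), while M6pr, the small mannose 6-phosphate receptor, rose by 1.19 there. Of these genes, the calls of Hyal1 in Pam3CSK4, Pla2g15 in LPS, Slc17a5 in both and M6pr were lost without naïve replicate 1 or 2 (adjusted p up to 0.128), that of Sort1 without naïve replicate 2 (adjusted p = 0.0512), and both of Pla2g15 with median scaling (-1.67 and -1.69).

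Among the TFE and mTORC1 genes, 1, 6, 6 and 2 of 17 were called in re-stimulated cells, all lower, and with median scaling 0, 0, 1 and 1, the last of them higher. On the deposited scale 5.66, 13.1, 5.36 and 9.03% of all probes were called in these groups. Fnip2, a partner of folliculin, fell by 2.41 with CpG (adjusted p = 0.00552) and by 2.67 with Pam3CSK4 (adjusted p = 0.0135), and Flcn, folliculin itself, fell by 2.94 in acute LPS cells (adjusted p = 0.000763). Of the V-ATPase accessory genes, Oxr1 was lower in re-stimulated CpG, Pam3CSK4 and Poly(I:C) cells (-1.40, -1.43 and -1.21) and Ncoa7, a V-ATPase binding protein with an interferon-inducible form, was higher in acute LPS and Poly(I:C) cells (3.77 and 2.32). Of 9 cathepsin inhibitors, 2, 1, 1 and 2 were called in re-stimulated LPS, CpG, Pam3CSK4 and Poly(I:C) cells, all higher, whereas without naïve replicate 3 these counts were 4, 4, 1 and 2, with 2, 3, 1 and 0 of them lower. Serpina3g, an intracellular serpin that inhibits cathepsins, rose by 6.35, 3.24 and 6.93 in LPS, CpG and Poly(I:C) cells (adjusted p = 0.00949, 0.00957 and 0.0106), and cystatin C (Cst3) was not called.

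**Figure D4:**
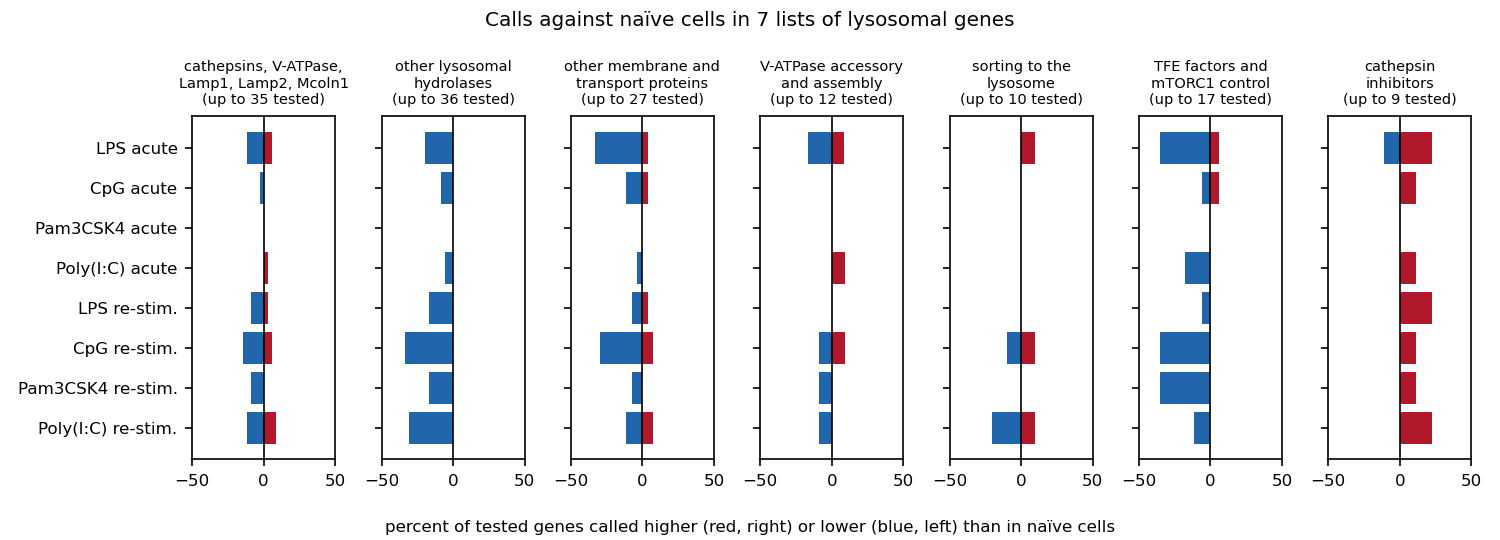
Percent of tested genes called higher (red, to the right) or lower (blue, to the left) than in naïve cells, for 7 lists of lysosomal genes (panels) in the 8 stimulated conditions (rows). On this scale the hydrolases have blue bars alone, up to 12 of 36 genes in re-stimulated CpG cells, and the row of acute Pam3CSK4 cells is empty in each panel.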

How the data were processed

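Each single-colour Agilent array measured the RNA of 1 culture. The authors deposited spot intensity values as scanned, and a table of log2 values, used here, that they background-corrected with RMA and quantile-normalized. Values made again from the intensities differed from it by a median of 0.0355. Array number limits the precision.

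Limma 3.58.1 in R 4.3.3 fitted each pair of groups over the probes that 2 or more arrays of either group showed well above background, with Benjamini-Hochberg adjustment over all of them. Called means an adjusted p below 0.05 and at least 1.5-fold. Every adjusted p is limma's. A gene is represented by its passing probe with the highest mean, called members are named with up to 8 per comparison, and list genes only as the largest rise or fall. The fit was tested on simulated data. Alternatives were normexp (offset 50), median scaling, no detection filter, the replicate number as a block, 1 fit of all 9 groups (also with slide as a random block), and each array left out; median scaling and the naïve arrays were applied to the lists after seeing the data. Promoters are from RefSeq.

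Replicate numbers come from the labels and are slide numbers outside acute LPS. Same-numbered arrays deviated together where CpG or Poly(I:C) groups were compared with each other or with naïve cells (correlations 0.12 to 0.54). Those of re-stimulated Pam3CSK4 and naïve cells lay in that range. For acute LPS and naïve cells they did not deviate together (0.0087 to 0.038). Re-stimulated LPS and naïve cells gave 0.08 and 0.094. Re-stimulated LPS gave 0.076 and 0.24 with re-stimulated CpG cells, and -0.063 and 0.29 with re-stimulated Poly(I:C) cells. The members and lists were chosen with earlier results of these data known. An older design file named the spots of acute LPS arrays, and 2 member spots have another name there.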

Additional observations from a re-analysis of the deposited data

How the results depend on the processing

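With values made again from the intensities, the counts of called members stayed as they were, while those over all probes moved slightly (for example 1589 against 1598 in acute CpG and 9721 against 9772 for re-stimulated against acute LPS). Counts of called members below are given as LPS, CpG, Pam3CSK4 and Poly(I:C) unless named. In 1 fit of all 9 groups, acute CpG and Poly(I:C) had 5 and 6, Pam3CSK4 and Poly(I:C) re-stimulated against acute 3 and 6, re-stimulated LPS, CpG and Pam3CSK4 against naïve 8, 11 and 8, and Poly(I:C) against CpG re-stimulated 2. Of all probes, that fit called 4594 of 27954 in acute CpG and 4157 of 28426 in acute Poly(I:C) cells. Re-stimulated LPS, CpG and Pam3CSK4 against naïve cells had 4976 of 27915, 5822 of 28176 and 4842 of 27945. With the slide as a random block these member counts were 6, 6, 3, 6, 10, 12, 10 and 5, with 1 for acute Pam3CSK4 (2650 of 27843 probes) and 3 for CpG re-stimulated against acute (3252 of 25739 probes). The fit of all 9 groups without naïve replicate 3, chosen after seeing the data, gave 10 for acute LPS, 6 and 6 for acute CpG and Poly(I:C), 3 and 6 for Pam3CSK4 and Poly(I:C) re-stimulated against acute, 8, 11, 10 and 11 for the re-stimulated groups against naïve, and 2 for Poly(I:C) against CpG. Of all probes, it called 10030 of 29933 in acute LPS cells and 5830 of 28176 in re-stimulated CpG against naïve cells. Normexp gave 5 and 5 for acute CpG and Poly(I:C), 3 for Poly(I:C) re-stimulated against acute, and 8 and 5 for re-stimulated LPS and Pam3CSK4 against naïve. The probes it called there were 2574, 2503, 1716, 3937 and 2728. Without the detection filter acute LPS had 3, acute CpG 0, re-stimulated against acute LPS 3, CpG 0 and Poly(I:C) 0, and re-stimulated against naïve 1, 3, 1 and 4. Of 55681 probes, that setting called 5649, 412, 7638, 147 and 228, and 316, 1646, 291 and 1241.

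Pairing by the replicate block gave 3 for acute LPS, 0 for acute CpG, 3 for Poly(I:C) re-stimulated against acute, 7 for re-stimulated LPS and 0 for re-stimulated Pam3CSK4 against naïve. Of all probes, it called 5778, 586, 1748, 4757 and 6 in these comparisons. For LPS the numbers are not shown to pair the cultures, and in re-stimulated LPS against naïve cells the block leaves naïve replicate 3 without a partner. The block changed no other call beyond those given in the report where the numbers pair the samples.

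Leaving out each array in turn gave 2 to 11 for acute LPS, 0 to 1 for acute CpG, 0 for acute Pam3CSK4 and 0 to 2 for acute Poly(I:C). Re-stimulated against acute gave 2 to 7, 0 to 2, 0 and 0 to 3, and re-stimulated against naïve 0 to 9, 3 to 13, 0 to 6 and 0 to 9. Between ligands it gave 0 to 4 for re-stimulated Poly(I:C) against CpG and 0 for the other 3 comparisons. The calls over all probes moved as well, for example from 3936 to 10961 of 29933 in acute LPS cells. A group left with 1 array is assumed to vary like the other.

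With median scaling the median change of all probes against naïve cells was 0.11 to 0.78. It gave 3 for acute LPS, 0 for acute CpG, and 3 and 2 for LPS and Poly(I:C) re-stimulated against acute. Of all probes, it called 3354 of 29933, 1100 of 27954, 7419 of 28592 and 1541 of 27139 there. Re-stimulated LPS, CpG and Poly(I:C) against naïve had 2, 2 and 2, where 4.93, 11.7 and 8.61% of all probes were called. In these groups the member share lay above that of all probes on the main scale. With median scaling, 2 of 35 members lay below the share of all probes for CpG and Poly(I:C) and near it for LPS. The signs of 16 changes turned. Against naïve cells they became, in acute CpG, 0.03 (Atp6v1b2), 0.24 (Atp6v1d) and 0.17 (Mcoln1), and 0.08 (Atp6v1a) in acute Poly(I:C). In re-stimulated LPS they became 0.10 (Atp6v1a), 0.08 (Atp6v1c1), 0.12 (Atp6v1g1) and 0.03 (Ctsa). In re-stimulated CpG they became 0.31 (Atp6v1a), 0.02 (Atp6v1b2), 0.48 (Atp6v1c1), 0.20 (Ctsa), 0.37 (Ctsl) and 0.36 (Lamp2). They became 0.20 (Ctsa) in Pam3CSK4 and 0.10 (Atp6v1a) in Poly(I:C). The cause was not tested. Leaving out 1 array moved Ctsg between -0.43 and 2.73 in acute CpG, between -0.31 and 2.56 in acute Poly(I:C) and between -1.99 and 0.17 in re-stimulated CpG cells. The lowest values for acute cells were those without naïve replicate 3, also in the fit of all 9 groups (-0.43 and -0.31), and the sign also turned without replicate 2 of the acute group (-0.25 and -0.02) and, in re-stimulated CpG, without naïve replicate 2 (0.17) or CpG replicate 3 (0.02). No called change of Atp6v0d2, Atp6v0a1 or Ctsc turned sign under these alternatives.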
